A study of Homo sapiens with 12 samples.

Results

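Canonical histone genes were examined in the human myeloma cell line KMS11 as every gene of the TPM table whose symbol starts with HIST1H, HIST2H, HIST3H or HIST4H. The rule found 70 genes among 29607: 6 of class H1, 17 of H2A, 20 of H2B, 13 of H3 and 14 of H4. RNA was sequenced in 12 libraries that form 6 groups of 2. Cells labelled WT carried a control hairpin (shControl), carried an empty vector (Vector) or received an STK17B inhibitor. Cells with a hairpin against STK17B formed the groups sh1 and sh2, and cells with an STK17B cDNA formed the overexpression group. All groups but the inhibitor group are labelled as untreated. STK17B encodes a serine/threonine kinase related to the death-associated protein kinases. The labels name neither the inhibitor nor its dose or time, and no group is labelled as vehicle, so the inhibitor libraries were compared with shControl. The series design places the inhibitor in control-hairpin cells. The labels do not say whether replicates were separate cultures, so p-values measure the spread between these libraries, which may be technical. TPM is a level per transcript length on a scale with one fixed total for every library, and depth is unknown.

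Histones are the proteins around which DNA is wound. H2A, H2B, H3 and H4 form the nucleosome core, and H1 binds the linker DNA between cores. Most of their RNA is made in S phase, when new DNA needs new nucleosomes, from many near-identical genes grouped in clusters. These RNAs usually end in a short stem-loop bound by SLBP in place of a poly(A) tail, while some histone genes also give polyadenylated RNA, as in cells that leave the cycle or differentiate. The libraries were made from RNA captured by its poly(A) tail. A level in them is therefore a level of the captured RNA, and a change in tailing and a change in total histone RNA cannot be told apart. In bulk RNA, fewer cells making a transcript and less of it per cell cannot be told apart either.

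The stem-loop is shown because it is the element that sets these genes apart from other genes. In the GENCODE 29 transcripts (GRCh38), 29 of the 70 genes held a match to the histone stem-loop consensus, a stem of 6 base pairs with a loop of 4 bases, searched on the transcript strand. Many of the models without one end at the stop codon. Over all 58721 annotated genes, 42 held a match, of which 34 were histone cluster genes. The 5 examples were chosen from genes whose levels are described in full, each with its stem-loop in capitals and 7 bases on either side.
HIST1H2AC: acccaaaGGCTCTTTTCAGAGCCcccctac
HIST1H2BD: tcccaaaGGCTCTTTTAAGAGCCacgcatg
HIST1H3H: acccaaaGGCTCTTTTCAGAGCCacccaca
HIST1H4H: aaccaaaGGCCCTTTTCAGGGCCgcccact
HIST2H4A: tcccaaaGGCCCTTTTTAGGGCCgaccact
Of the H2A, H2B and H3 genes with a match, 15 held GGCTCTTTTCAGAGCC, 5 held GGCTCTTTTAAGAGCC and 2 held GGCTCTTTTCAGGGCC. The 7 H4 genes with a match held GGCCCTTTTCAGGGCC in 5 cases and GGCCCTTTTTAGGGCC in 2. Annotated transcripts of several genes ran far past this element: by up to 1655 bases in HIST1H4H, 1128 in HIST1H2AC and 769 in HIST1H3H, against 39 in HIST1H2BD. A poly(A) signal (AATAAA or ATTAAA, transcript strand) stood in the last 50 bases of a transcript in 21 of the 70 genes. Of all annotated protein-coding transcripts, 44.2% held it there, a share per transcript that is not directly comparable with a count of genes. Of the 21 genes with the signal, 17 reached the level needed for testing below, and of the 49 without it 19 did. Models that end at the stop codon hold no sequence past it where a signal could lie. The 2 sets thus differ in annotation as well, and the counts do not show that the signal goes with detection.

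Upstream sequence is shown for 3 genes, the H4 and H2A genes with the largest log2(TPM + 1) difference in the hairpin libraries and the H1 gene that did not pass the test there. Each is the 250 bases before the RefSeq start (GRCh38.p14), with capitals marking 3 motifs on either strand. These are CCAAT, the TATA box as TATAAA, and the octamer ATTTGCAT.
HIST1H2AC, plus strand, chr6:26123922-26124171: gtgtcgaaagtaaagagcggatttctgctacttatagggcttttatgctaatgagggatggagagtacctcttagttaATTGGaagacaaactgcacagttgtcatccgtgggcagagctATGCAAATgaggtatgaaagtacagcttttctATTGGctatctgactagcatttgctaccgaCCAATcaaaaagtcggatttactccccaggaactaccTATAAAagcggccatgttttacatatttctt
HIST1H4H, minus strand, chr6:26285535-26285784: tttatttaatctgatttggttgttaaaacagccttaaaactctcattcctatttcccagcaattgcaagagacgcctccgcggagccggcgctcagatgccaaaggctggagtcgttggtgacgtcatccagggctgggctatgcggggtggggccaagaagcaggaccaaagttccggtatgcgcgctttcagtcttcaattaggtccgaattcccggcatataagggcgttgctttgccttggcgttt
HIST1H1C, minus strand, chr6:26056471-26056720: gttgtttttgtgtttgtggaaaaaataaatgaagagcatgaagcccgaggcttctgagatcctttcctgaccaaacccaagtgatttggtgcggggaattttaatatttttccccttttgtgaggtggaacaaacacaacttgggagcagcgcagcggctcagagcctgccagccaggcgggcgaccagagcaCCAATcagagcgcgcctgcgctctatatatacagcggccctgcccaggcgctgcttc
RefSeq promoters, 250 bases before to 50 after the start, were matched for 57 of the 70 genes. The octamer, a site class known for Oct factors at H2B genes, was present in 73.3% of 15 H2A promoters and 69.2% of 13 H2B promoters, in 9.1% of 11 H3 promoters and in none of the 12 H4 or 6 H1 promoters, against 1.8% of all 27305 promoters. CCAAT, the sequence NF-Y binds, was in all H1, H2A, H2B and H3 promoters matched and in 25% of H4 promoters, against 35.7% of all promoters. TATAAA was in 66.7% of the 57 promoters and 12% of all promoters. A match of letters is a description and does not show a bound site. HIST1H4H held none of these motifs in its window, and HIST1H2AC held 3 CCAAT, 1 TATAAA and 1 octamer.

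Of the 70 genes, 36 reached 1 TPM in at least 2 libraries: 1 of class H1, 9 of H2A, 13 of H2B, 6 of H3 and 7 of H4. The H1 gene was HIST1H1C. The H2A genes were HIST1H2AC, HIST1H2AE, HIST1H2AG, HIST1H2AI, HIST1H2AK, HIST1H2AL, HIST1H2AM, HIST2H2AA3 and HIST2H2AC. The H2B genes were HIST1H2BC, HIST1H2BD, HIST1H2BF, HIST1H2BG, HIST1H2BH, HIST1H2BJ, HIST1H2BK, HIST1H2BL, HIST1H2BN, HIST1H2BO, HIST2H2BC, HIST2H2BE and HIST2H2BF. The H3 genes were HIST1H3B, HIST1H3D, HIST1H3G, HIST1H3H, HIST2H3A and HIST2H3D, and the H4 genes HIST1H4C, HIST1H4E, HIST1H4H, HIST1H4I, HIST1H4K, HIST2H4A and HIST4H4. Of these, 16 were at 1 TPM or more in all 12 libraries. Just inside the limit, HIST1H4C and HIST4H4 reached it in 2 libraries. Just outside, 7 genes reached it in 1 library (HIST1H1E, HIST1H2AD, HIST1H2AH, HIST1H2BE, HIST1H3F, HIST1H4D and HIST2H2AB). Another 12 genes were above 0 but below 1 TPM throughout, and 15 were listed at 0 in every library, among them the testis H2A and H2B pair HIST1H2AA and HIST1H2BA. A listed 0 can be a failed estimate rather than an absent RNA. The chromosome 6 clusters (GRCh38, 25726132 to 27893843) held 56 of the 70 genes and 27 of the 36, chromosome 1 held 13 and 8, and chromosome 12 held HIST4H4.

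A few genes held most of the level. HIST1H2BK (H2B), HIST1H1C (H1), HIST2H2AA3 (H2A) and HIST2H4A (H4) made up between 59.9% and 73.6% of the summed TPM of the 70 genes in a library. The mean over 12 libraries was 133 TPM for HIST1H2BK, 87.1 for HIST1H1C, 82.3 for HIST2H2AA3 and 69.6 for HIST2H4A. The highest H3 gene, HIST1H3H, averaged 8.37 TPM. Near-identical copies make some of these values uncertain. All 50-base windows of HIST2H2AA3 and HIST2H3A and 97.5% of those of HIST2H4A also occur in another annotated gene, namely the copies HIST2H2AA4, HIST2H3C and HIST2H4B, which are not rows of the table. For HIST1H2BK the share was 74.1%, with the H2B-like gene H2BFS. For HIST1H4H, HIST1H3H and HIST1H1C it was 0%, and for HIST1H2AC it was 0.4%.

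The summed level was lowest in shControl (465 and 461 TPM) and with the inhibitor (480 and 480), and highest with sh1 (675 and 675). It was 591 and 611 TPM with sh2, 552 and 541 in Vector and 631 and 633 with overexpression. Class H1, which is nearly all HIST1H1C, ranged only from 80.6 to 99.5 TPM over the 12 libraries. H3 varied most: 9.32 and 6.41 TPM in shControl, 12.5 and 12.7 in Vector, 11.7 and 12.6 with the inhibitor, 16.7 and 14.8 with overexpression, 24.6 and 28.5 with sh1 and 21.2 and 26.4 with sh2. The order of the groups in H3 thus ran from shControl to the hairpins, and the ranges of Vector and the inhibitor touched. Summed H2A was 101 and 105 TPM in shControl, against 183 and 186 with sh1 and 149 and 145 with sh2. The sh1 libraries stood above all others, and the lower sh2 library met the higher overexpression library (141 and 145). Summed H4 followed another order, with the highest values in overexpression (126 and 121) and the lowest in shControl (58.3 and 49.1) and the inhibitor (44.9 and 69.4). These sums are descriptions and were not tested.

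**Figure D1:**
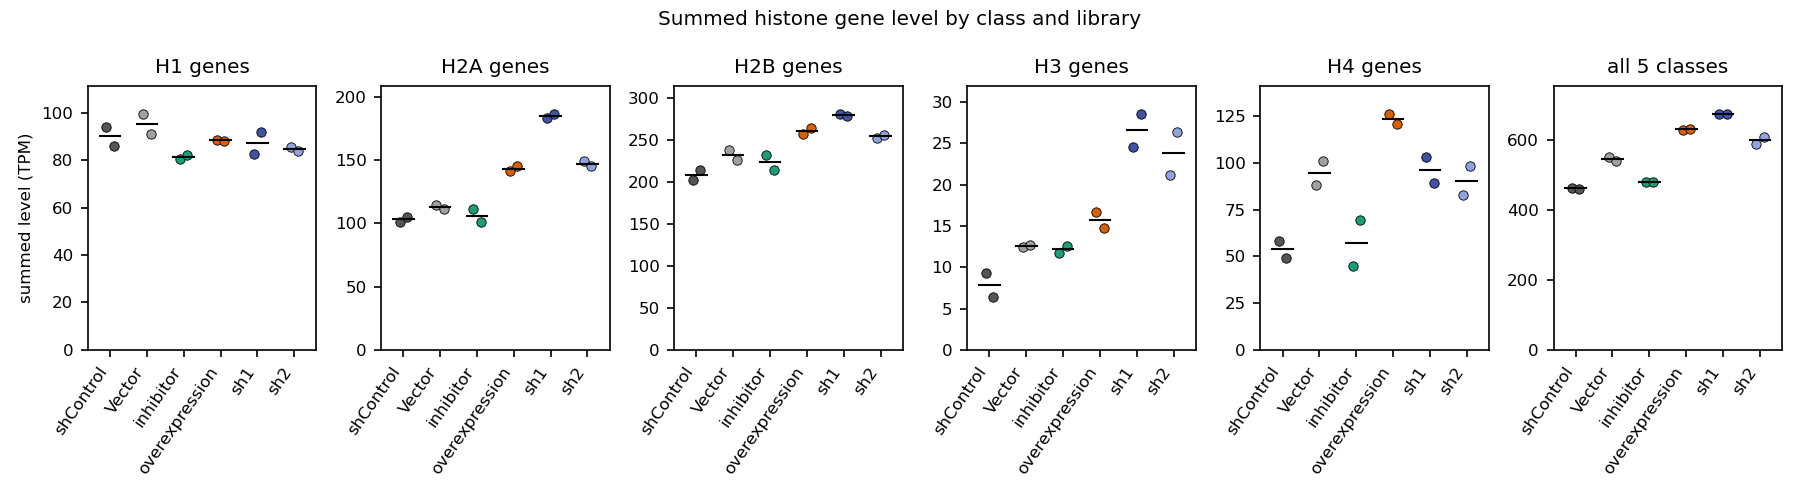
Summed level in TPM (y axis, from 0) of the histone genes of each class and of all 5 classes, by group (x axis); points are libraries and lines are means of 2. H1 stays between 80.6 and 99.5 TPM, while H3 runs from 6.41 TPM in an shControl library to 28.5 in an sh1 library.

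The labels held for the targeted gene: STK17B was at 27.1 and 27.4 TPM in shControl, 12.7 and 10.9 with sh1, 14.7 and 14.5 with sh2, 24.9 and 22.4 with the inhibitor, 28.2 and 31.5 in Vector and 94.1 and 84.5 with overexpression. Of the 8 plasma cell marker genes looked up, all 8 reached 1 TPM in at least 2 libraries. Of 6 T and NK cell markers 2 did, CD7 and CD3E, while CD3D was listed at 0 in all libraries. CD7 made up most of that list, whose summed level was 143 and 143 TPM in shControl, 235 and 222 in Vector, 227 and 241 with the inhibitor, 418 and 450 with overexpression, 260 and 244 with sh1 and 220 and 220 with sh2. Summed myeloid, stromal and B cell markers stayed at or below 3.18 TPM in every library. The part of any such difference in the histone results was not tested.

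In the hairpin libraries the H4 gene HIST1H4H, the H2A gene HIST1H2AC and the H3 gene HIST1H3H were higher, other H2A, H2B and H3 genes rose by less, and the H1 gene did not pass the test. Against shControl, 17 of the 36 genes rose in the mean of both hairpins and 0 fell, where 26.2% of the 12731 genes tested rose and 20.2% fell. The genes that rose were 6 of 9 H2A (66.7%), 4 of 6 H3 (66.7%), 3 of 7 H4 (42.9%) and 4 of 13 H2B (30.8%), the last near the share of all genes. Of the 3 H4 genes only HIST1H4H kept its call against both control groups together. The median difference of the 36 was 0.54 on the log2(TPM + 1) scale, against 0.03 over all genes tested. The pseudocount of 1 TPM makes changes of low genes look smaller. With sh1 alone 15 rose and 0 fell, against 23.7% and 21.3% of all genes. With sh2 alone 13 rose and 0 fell, against 22% and 13.4%.

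HIST1H4H (H4C8, GRCh38, chromosome 6, 26277609 to 26285638, minus strand, protein-coding), which encodes the core histone H4, had the largest difference on the log2(TPM + 1) scale. It was at 1.64 and 1.69 TPM in shControl, 13.1 and 13.3 with sh1 and 7.09 and 6.81 with sh2 (difference 1.996, SE 0.12, adjusted p = 2e-06, higher in 4 of 4 libraries). It was at 3.04 and 4.25 TPM in Vector, 1.16 and 1.74 with the inhibitor and 5.02 and 5.57 with overexpression. All 4 hairpin libraries lay above the 8 others, and sh1 lay above sh2. As a ratio of plain TPM its rise was not the largest: HIST2H3A, an H3 gene, went from 0.571 and 0.417 TPM in shControl to 2.78 and 2.88 with sh1 and 3.46 and 4.44 with sh2. HIST1H2AC (H2AC6, chromosome 6, 26124145 to 26139116, plus strand), an H2A gene, was at 8.68 and 8.91 TPM in shControl, 46.1 and 41 with sh1 and 28.3 and 29.7 with sh2 (1.90, SE 0.09, adjusted p = 7.3e-07). It was at 15.8 and 19.8 in Vector, 14.4 and 12.6 with the inhibitor and 23.9 and 27.4 with overexpression. The hairpin libraries again lay above all others, the nearest being an overexpression library. The highest H3 gene, HIST1H3H (H3C10, chromosome 6, 27810064 to 27811300, plus strand), was at 3.93 and 2.03 TPM in shControl, 12.8 and 16 with sh1 and 9.93 and 16 with sh2 (1.90, SE 0.23, adjusted p = 0.00015). It was at 5.75 and 6.15 in Vector, 5.92 and 5.84 with the inhibitor and 9.75 and 6.32 with overexpression. Its lowest hairpin library stood just above its highest overexpression library.

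HIST1H2BD, an H2B gene with both a stem-loop and a poly(A) signal, was at 21.4 and 17.6 TPM in shControl, 45.1 and 50.7 with sh1 and 37.5 and 28.5 with sh2 (0.99, SE 0.15, adjusted p = 0.0005). HIST1H2AG, an H2A gene, was at 8.87 and 8.52 in shControl, 19.7 and 15.9 with sh1 and 12.9 and 12.9 with sh2 (0.73, SE 0.11, adjusted p = 0.00063). Neither gene's hairpin libraries overlapped with shControl. HIST1H2BK, the most abundant, rose from 115 and 118 TPM to 152 and 149 with sh1 and 139 and 146 with sh2 (0.33, SE 0.04, adjusted p = 0.00024). HIST2H2AA3 rose from 71.6 and 75.9 to 93.5 and 106 with sh1 and 88.8 and 80.2 with sh2 (0.31, SE 0.08, adjusted p = 0.008). HIST2H4A rose from 49.9 and 41 to 77.2 and 62.3 with sh1 and 65.8 and 79.2 with sh2 (0.63, SE 0.16, adjusted p = 0.011). The last 2 values include whatever their near-identical copies contributed. The other genes that rose were low: HIST1H2AI (1.65), HIST2H3A (1.54), HIST1H4E (1.23), HIST2H2BF (1.08), HIST1H2BL (1.01), HIST1H2AK (1.003), HIST1H3G (0.73), HIST1H3D (0.44) and HIST1H2AM (0.43). Windows shared with another annotated gene made up 100% of HIST1H3D, 86.3% of HIST1H2AM and 62.3% of HIST1H2AI, so these values are uncertain too. HIST1H4E and HIST2H2BF were listed at 0 in both shControl libraries, so their differences are no fold change.

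HIST1H1C, a linker histone gene and the only H1 gene tested, did not pass the test: 93.5 and 85.8 TPM in shControl, 82.1 and 91 with sh1 and 84.2 and 82.8 with sh2 (-0.08, SE 0.05, adjusted p = 0.27). Other abundant genes that did not pass the test were of class H2B or H4. HIST1H2BC was at 11.5 and 13.5 TPM in shControl, 12.7 and 13.9 with sh1 and 14.7 and 12.8 with sh2 (0.11, SE 0.15, adjusted p = 0.58). HIST1H2BJ was at 20.6 and 28.7 in shControl, 24.8 and 27.3 with sh1 and 21.8 and 24 with sh2 (0.00, SE 0.12, adjusted p = 0.98). In both genes the hairpin libraries overlapped with shControl. HIST2H2BC, a transcribed H2B pseudogene, was at 20.1 and 19 TPM in shControl, 22.3 and 17.9 with sh1 and 18.9 and 20.7 with sh2. HIST2H2BE was at 5.98 and 6.3 in shControl, 5.26 and 5.35 with sh1 and 6.29 and 5.63 with sh2. HIST1H4I was at 5.04 and 5.2 in shControl, 7.82 and 6.31 with sh1 and 4.47 and 8.15 with sh2, and HIST1H2BN at 2.19 and 5.27, 6.61 and 4.52, and 5.12 and 7.21.

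**Figure D2:**
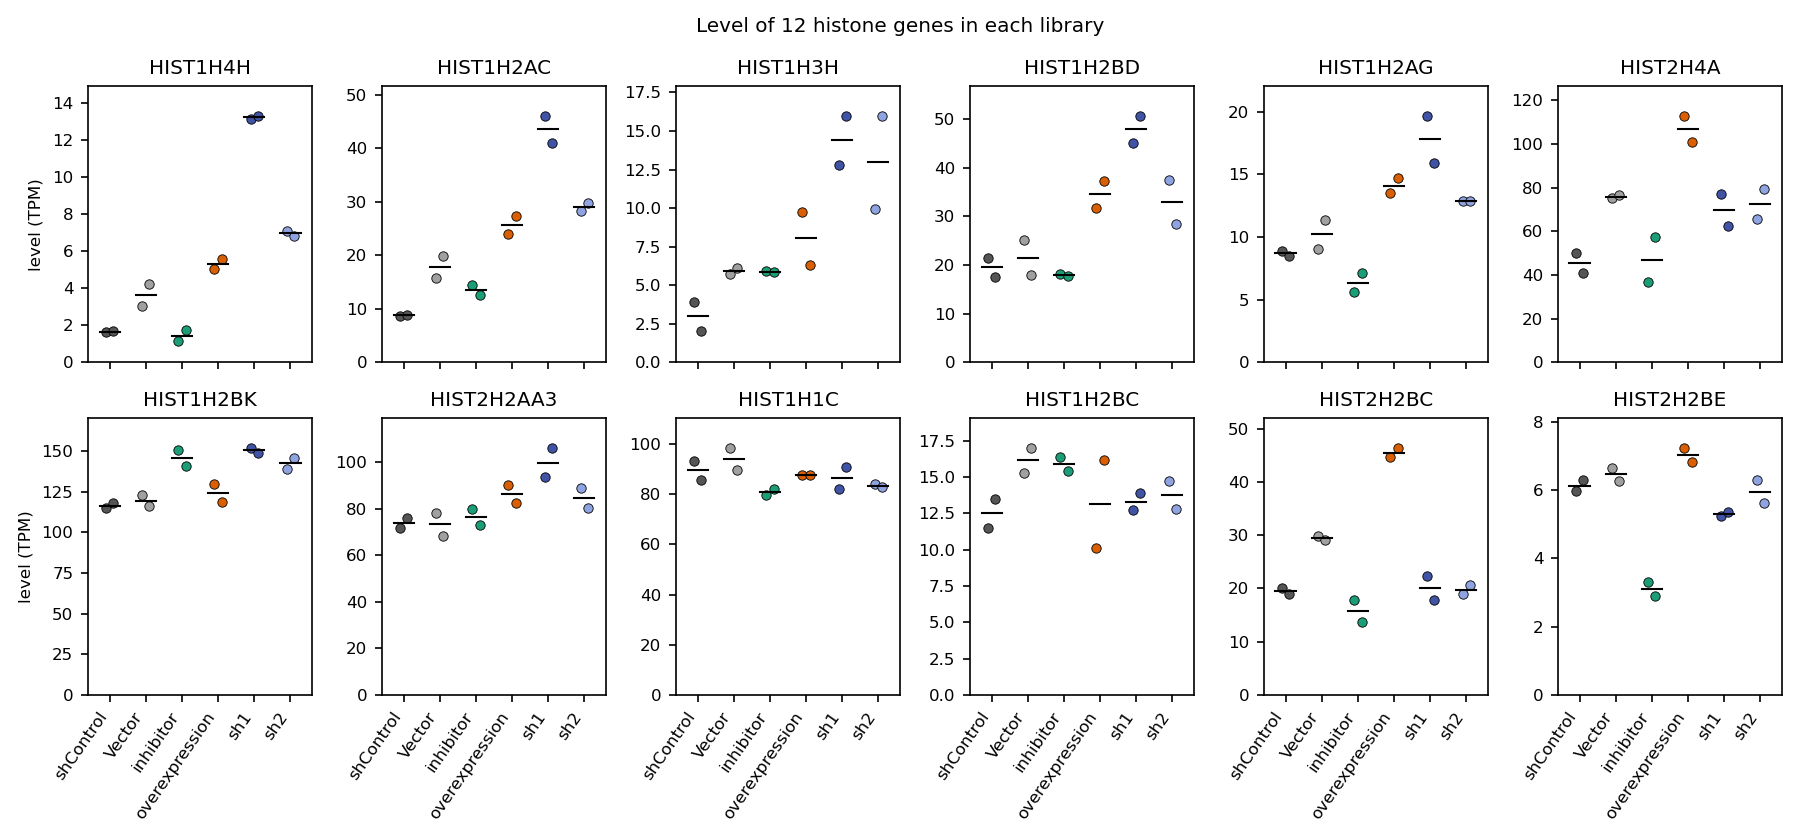
Level in TPM (y axis, from 0 in each panel) of 12 histone genes by group (x axis); points are libraries and lines are means of 2. The hairpin libraries of HIST1H4H, HIST1H2AC and HIST1H3H lie above all others, while HIST1H1C ranges from 79.8 to 98.5 TPM.

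How far the knockdown result rests on single libraries and on the control differed by gene. Of the 17 genes, 9 stayed past the test when any 1 library was left out (HIST1H2AC, HIST1H2AG, HIST1H2BD, HIST1H2BK, HIST1H2BL, HIST1H3H, HIST1H4H, HIST2H2BF and HIST2H3A). The other 8 lost the call at least once. Without shControl replicate 1, HIST2H2AA3 was at 0.27 (adjusted p = 0.073), HIST1H2AK at 0.69 (adjusted p = 0.2), HIST1H2AM at 0.41 (adjusted p = 0.084), HIST1H3D at 0.37 (adjusted p = 0.19) and HIST1H4E at 1.23 (adjusted p = 0.1). Without shControl replicate 2, HIST2H4A was at 0.50 (adjusted p = 0.1), HIST1H2AI at 1.21 (adjusted p = 0.052), HIST1H2AM at 0.44 (adjusted p = 0.063), HIST1H3D at 0.51 (adjusted p = 0.077), HIST1H3G at 0.23 (adjusted p = 0.37) and HIST1H4E at 1.23 (adjusted p = 0.099). Leaving out a hairpin library ended calls of HIST1H2AK (0.87 without sh1 replicate 2, 0.96 without sh2 replicate 1), HIST1H3D (0.40 without sh1 replicate 1, 0.36 without sh2 replicate 1), HIST1H4E (1.11 and 1.13 without those same 2 as HIST1H2AK) and HIST1H3G (0.76, 0.70 and 0.63 without sh1 replicate 1, sh1 replicate 2 and sh2 replicate 1).

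The columns of the 2 control groups were assigned by library number, and single histone genes differ between the groups, so both were also used together, a setting added after the values were seen. Against the mean of shControl and Vector, 17 of the 36 genes rose and 1 fell, where 24.9% of all genes rose and 27.1% fell. HIST1H4H differed by 1.60 (SE 0.10, adjusted p = 1.6e-06), HIST1H3H by 1.48 (SE 0.19, adjusted p = 0.00017) and HIST1H2AC by 1.43 (SE 0.08, adjusted p = 7.5e-07). HIST2H4A (0.27, adjusted p = 0.12) and HIST1H4E (0.29, adjusted p = 0.46) no longer passed, and HIST2H2BC was lower (-0.26, SE 0.08, adjusted p = 0.026). In 11 of the 36 genes all 4 hairpin libraries lay above all 4 control libraries of both kinds, against 16.7% of all genes tested. These were HIST1H2AC, HIST1H2AG, HIST1H2AI, HIST1H2AM, HIST1H2BD, HIST1H2BF, HIST1H2BK, HIST1H3G, HIST1H3H, HIST1H4H and HIST2H2AA3. HIST1H3G is nearly a tie, at 1.69 TPM in sh1 replicate 1 against 1.68 in shControl replicate 1. HIST1H2BF reached 1 TPM in the 4 hairpin libraries and otherwise only in an overexpression library (1.84 TPM). It was tested only because of its hairpin values, so its place here is no support. In 0 genes did all 4 lie below, against 18.7%. Against shControl alone, all 4 hairpin libraries lay above both control libraries in 19 of the 36 genes, where 32.5% of all genes did so. HIST1H2BF is also among these 19, and among the 17 genes that rose against the mean of both control groups, with the same limit.

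The hairpins differed in size of effect. Against sh1, 2 of the 36 genes were lower with sh2 and 0 were higher, where 0.385% of all genes were lower and 1.16% higher. HIST1H4H was lower by -0.84 (SE 0.14, adjusted p = 0.025) and HIST1H2AC by -0.57 (SE 0.11, adjusted p = 0.04), with no overlap between the libraries of the hairpins in either gene. Neither call held without any 1 of the 4 libraries (HIST1H4H -0.81 to -0.86, HIST1H2AC -0.49 to -0.65).

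With the inhibitor the histone genes moved both ways. Against shControl, 5 of the 36 rose and 4 fell, where 28% of the 12731 genes rose and 11.8% fell. Their median difference was -0.02, against 0.08 over all genes. The H3 genes HIST2H3A (0.90, SE 0.14, adjusted p = 0.00079) and HIST1H3H (0.83, SE 0.27, adjusted p = 0.034), the H2B genes HIST2H2BF (1.01) and HIST1H2BK (0.33, SE 0.05, adjusted p = 0.00092) and the H2A gene HIST1H2AC (0.56, SE 0.11, adjusted p = 0.0029) rose. HIST1H2BK was at 151 and 141 TPM with the inhibitor, against 115 and 118 in shControl and 123 and 116 in Vector, and overlapped with neither control. HIST2H2BE, an H2B gene, fell: it was at 3.3 and 2.91 TPM with the inhibitor, against 5.98 and 6.3 in shControl (-0.80, SE 0.08, adjusted p = 6.7e-05). Its inhibitor libraries were the lowest 2 of the 12, all others lying between 5.26 and 7.24 TPM. HIST1H2BH (-1.18), HIST1H2AM (-0.61) and HIST1H2AG (-0.40) fell as well. HIST1H4H was at -0.13 (SE 0.14, adjusted p = 0.49) and HIST1H1C at -0.15 (SE 0.06, adjusted p = 0.082).

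Of these inhibitor calls, 4 were lost when 1 library was left out. HIST1H3H was at 0.48 without shControl replicate 2, 0.82 without inhibitor replicate 1 and 0.84 without inhibitor replicate 2. HIST2H2BF stayed at 1.01 without either replicate of either group, with adjusted p from 0.051 to 0.056. HIST1H2AG was at -0.38 and -0.43 without shControl replicates 1 and 2 and at -0.26 without inhibitor replicate 1. HIST1H2BH was at -0.72 without shControl replicate 1 and at -1.37 and -0.98 without inhibitor replicates 1 and 2. Against the mean of both control groups 1 gene rose (HIST1H2BK, 0.31, SE 0.04, adjusted p = 0.00033) and 9 fell, where 29.7% of all genes rose and 21% fell. The 9 were HIST1H1C (-0.18), HIST1H2AG (-0.50), HIST1H2AM (-0.47), HIST1H2BH (-0.98), HIST1H2BL (-0.80), HIST1H2BN (-0.88), HIST1H4H (-0.52), HIST2H2BC (-0.59) and HIST2H2BE (-0.83). The rises of HIST1H3H (0.41, adjusted p = 0.17) and HIST1H2AC (0.10, adjusted p = 0.42) did not pass there. Both inhibitor libraries lay below all 4 control libraries in 8 of the 36 genes, against 20.2% of all genes, and above all 4 in 1, against 32%.

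Inhibitor and hairpin libraries were also compared directly, which does not use the control columns. These groups differ in both compound and hairpin, and no group is labelled as vehicle, so the parts of each cannot be told apart. Of the 36 genes 18 were lower with the inhibitor than in the mean of the hairpins and 0 were higher, where 21.6% of all genes were lower and 30.9% higher. Their median difference was -0.60, against 0.04 over all genes. HIST1H4H differed by -2.13 (SE 0.12, adjusted p = 9.7e-07), HIST1H2AC by -1.34 (SE 0.09, adjusted p = 3.6e-06), HIST1H2AG by -1.13 (SE 0.11, adjusted p = 2.9e-05), HIST1H2BD by -1.10 (SE 0.15, adjusted p = 0.00019) and HIST1H3H by -1.07 (SE 0.23, adjusted p = 0.0037). Further genes lower were HIST1H2AI (-2.16), HIST1H2BL (-1.34), HIST1H2AM (-1.04), HIST1H2BN (-1.01), HIST1H2AE (-0.90), HIST1H2BF (-0.86), HIST1H3G (-0.75), HIST2H2BE (-0.69), HIST2H3A (-0.64), HIST2H4A (-0.61), HIST1H2BJ (-0.38), HIST2H2BC (-0.33) and HIST2H2AA3 (-0.26). HIST1H2BK (-0.01, SE 0.04) and HIST1H1C (-0.07, SE 0.05) did not pass. In 21 of the 36 genes all 4 hairpin libraries lay above both inhibitor libraries, against 25.9% of all genes. Both counts include HIST1H2BF, which was tested only because of its hairpin values. Of the 18, 10 held without any 1 library. Without inhibitor replicate 1, HIST2H4A was at -0.30 and HIST1H2BN at -0.61, and without inhibitor replicate 2 HIST2H2AA3 was at -0.19, HIST2H2BC at -0.15 and HIST1H2BF at -0.42, none past the test. HIST1H2AE, HIST1H2BJ and HIST1H3G lost their calls without either inhibitor library (HIST1H2AE -0.999 and -0.80, HIST1H2BJ -0.43 and -0.33, HIST1H3G -0.62 and -0.88). Among the hairpin libraries, leaving out sh1 replicate 1 ended the calls of HIST1H2AE (-0.80) and HIST2H2BC (-0.25), and leaving out sh1 replicate 2 those of HIST1H2AE (-0.995), HIST1H2BF (-0.76), HIST1H2BJ (-0.346) and HIST1H3G (-0.72). Leaving out sh2 replicate 1 ended those of HIST1H2AE (-0.99) and HIST1H3G (-0.65), and leaving out sh2 replicate 2 those of HIST1H2AE (-0.81), HIST1H2BF (-0.80), HIST1H2BJ (-0.345) and HIST2H2BC (-0.295).

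**Figure D3:**
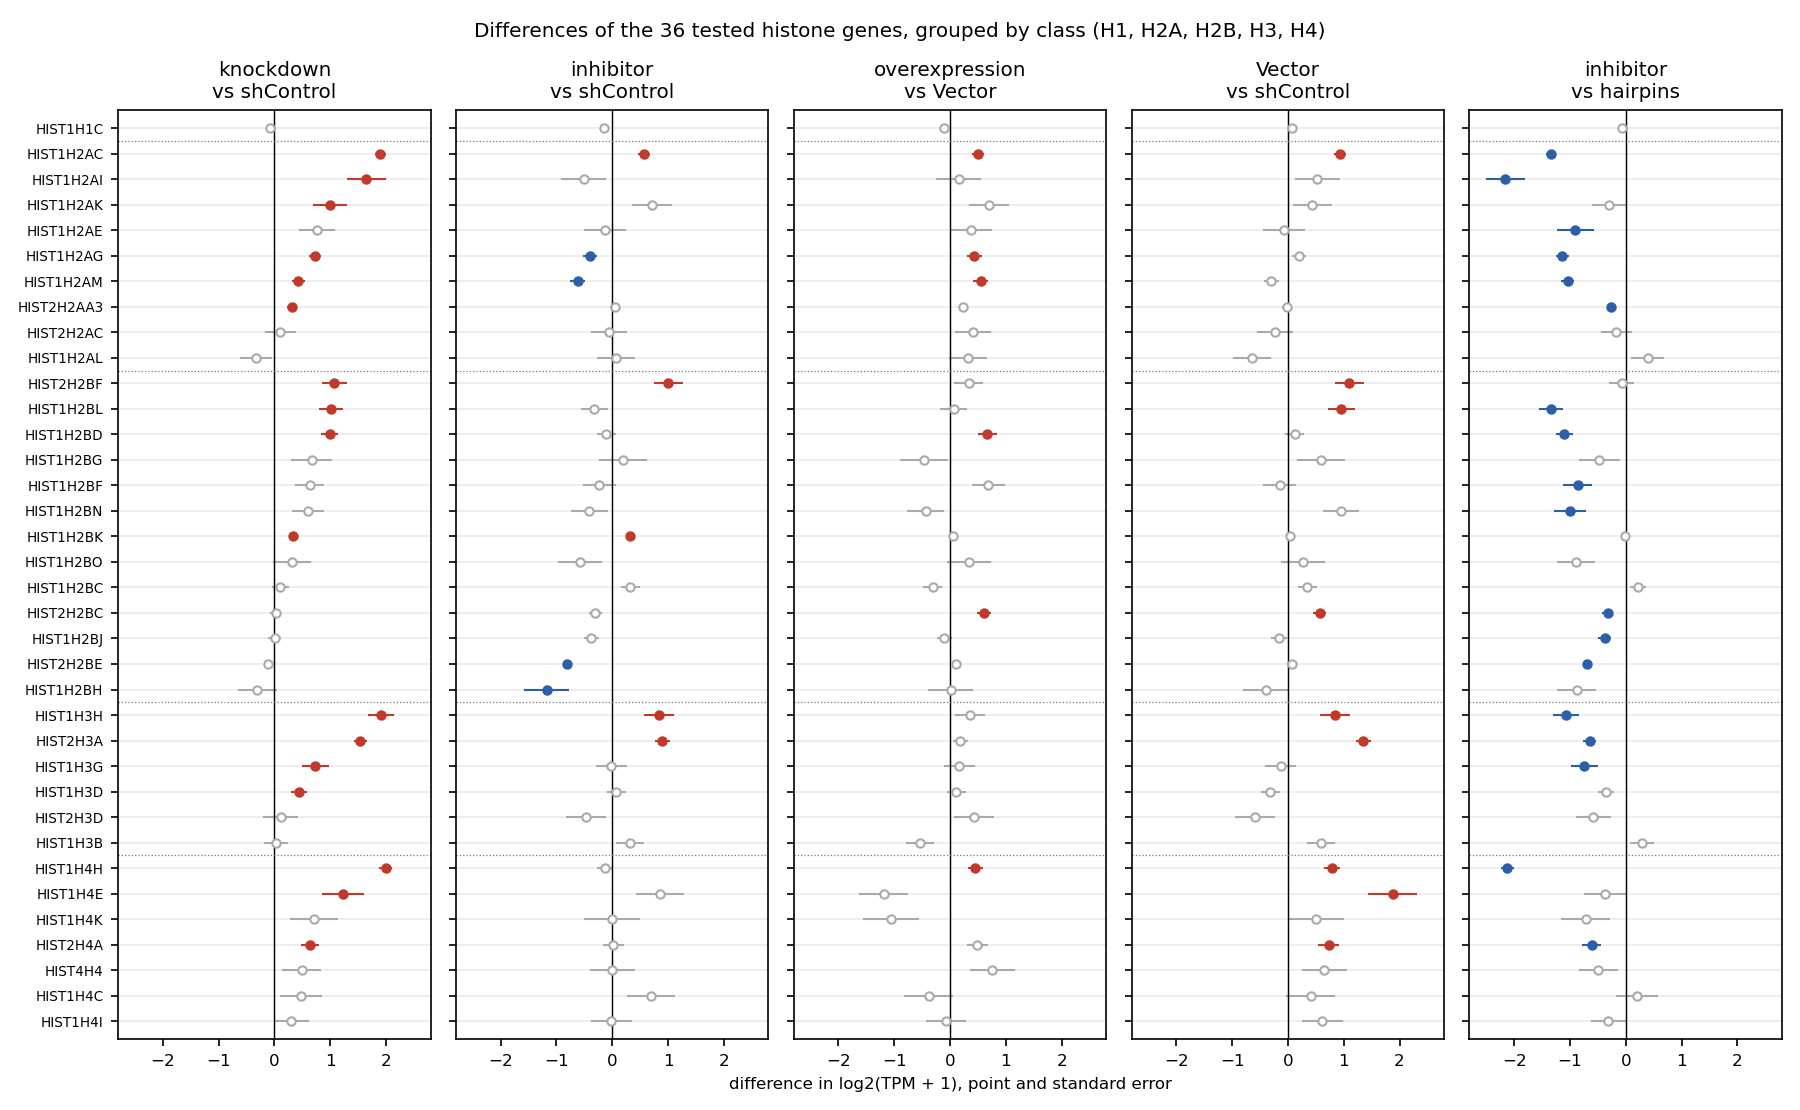
Difference in log2(TPM + 1) (x axis) with its standard error for each of the 36 tested histone genes (y axis, grouped by class), in 5 comparisons; filled points have an adjusted p below 0.05, red for higher and blue for lower. In the knockdown 17 points are red and 0 blue, and with the inhibitor against the hairpins 0 are red and 18 blue.

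With overexpression, a smaller share of histone genes than of all genes rose on the TPM scale. Against Vector, 6 of the 36 (16.7%) rose and 0 fell, where 26.6% of all genes rose and 10.3% fell, so the count is no result about the histone genes as a group. It was 3 higher and 1 lower under quantile normalization, and 2 higher and 1 lower without overexpression replicate 2. The median difference of the 36 was 0.21, against 0.08 over all genes. Of all genes, 3381 rose on the TPM scale, 1987 with the median of ratios and 2210 with quantile normalization. The share of all genes that rose thus depended on the scaling. HIST2H2BC, the H2B pseudogene, was at 44.7 and 46.4 TPM with overexpression, against 29.9 and 29.1 in Vector (0.61, SE 0.12, adjusted p = 0.0036). Its overexpression libraries were the highest 2 of the 12, above the hairpin libraries at 17.9 to 22.3 TPM. HIST1H2AC (0.51, SE 0.11, adjusted p = 0.0054), HIST1H2BD (0.67, SE 0.17, adjusted p = 0.013), HIST1H2AM (0.55, SE 0.14, adjusted p = 0.011), HIST1H4H (0.45, SE 0.14, adjusted p = 0.028) and HIST1H2AG (0.44, SE 0.13, adjusted p = 0.025) rose as well. HIST2H4A, at 113 and 101 TPM against 75.1 and 76.6 in Vector, did not overlap but missed the test (0.49, SE 0.19, adjusted p = 0.072). HIST1H2AC and HIST2H2BC kept the call without any 1 library. The other 4 lost it: without overexpression replicate 2, HIST1H2AG was at 0.38, HIST1H2AM at 0.33, HIST1H2BD at 0.56 and HIST1H4H at 0.39. Without Vector replicate 1, HIST1H2AG was at 0.29 and HIST1H4H at 0.26. Without Vector replicate 2, HIST1H2AM was at 0.49 and HIST1H2BD at 0.44. Without overexpression replicate 1, HIST1H2AG was at 0.50 and HIST1H4H at 0.51.

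Between the 2 control groups, single histone genes differed. In Vector against shControl, 9 of the 36 genes (25%) rose and 0 fell, where 21.4% of all genes rose and 7.86% fell. On the TPM scale the share that rose was thus near that of all genes. Of all genes, 2723 rose on that scale, but 1659 with the median of ratios and 1549 with quantile normalization, so this nearness depends on the scaling. The median difference of the 36 was 0.38, against 0.09 over all genes. HIST2H3A was at 2.8 and 2.82 TPM in Vector, against 0.571 and 0.417 in shControl (1.35, SE 0.14, adjusted p = 0.00015). HIST1H2AC differed by 0.93 (SE 0.11, adjusted p = 0.00032), HIST1H4H by 0.79 (SE 0.14, adjusted p = 0.0026) and HIST2H2BC by 0.57 (SE 0.12, adjusted p = 0.0068). These 4 kept the call without any 1 library. HIST1H4E (1.88), HIST2H2BF (1.10), HIST1H2BL (0.96), HIST1H3H (0.85) and HIST2H4A (0.73) rose but depended on single libraries. Without shControl replicate 1 the calls of HIST1H4E (1.88), HIST1H2BL (0.95) and HIST2H2BF (1.10) were lost, and without shControl replicate 2 those of HIST1H2BL (0.96), HIST1H3H (0.49), HIST2H2BF (1.10) and HIST2H4A (0.60). Without Vector replicate 1 those of HIST1H3H (0.89) and HIST2H4A (0.75) were lost, and without Vector replicate 2 those of HIST1H2BL (0.78), HIST1H3H (0.81), HIST1H4E (1.76), HIST2H2BF (0.73) and HIST2H4A (0.72). The knockdown, inhibitor and Vector comparisons share the shControl libraries, so a gene low in those libraries is higher in all 3.

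Many H2A and H2B genes lie head to head, so a pair can share the DNA between them. Of 12 pairs of the 70 genes whose 5′ ends lie at most 500 bases apart on opposite strands, 11 join an H2A to an H2B gene, and in 6 pairs both genes were tested. HIST1H2AC and HIST1H2BC start 219 bases apart in GENCODE, within the upstream sequence printed above, yet in the knockdown HIST1H2AC differed by 1.90 and HIST1H2BC by 0.11. HIST1H2AG and HIST1H2BJ start 292 bases apart, and differed by 0.73 and 0.00. HIST1H2AI and HIST1H2BL, 268 bases apart, both rose, by 1.65 and 1.01. HIST1H2AM and HIST1H2BO, 314 bases apart, differed by 0.43 and 0.31, of which the first passed the test. HIST1H2AE and HIST1H2BG, 283 apart (0.77 and 0.67), and HIST2H2AC and HIST2H2BE, 323 apart (0.11 and -0.11), did not pass. With the inhibitor HIST2H2BE fell (-0.80) and HIST2H2AC was at -0.06. The difference between the genes of a pair was not tested.

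**Figure D4:**
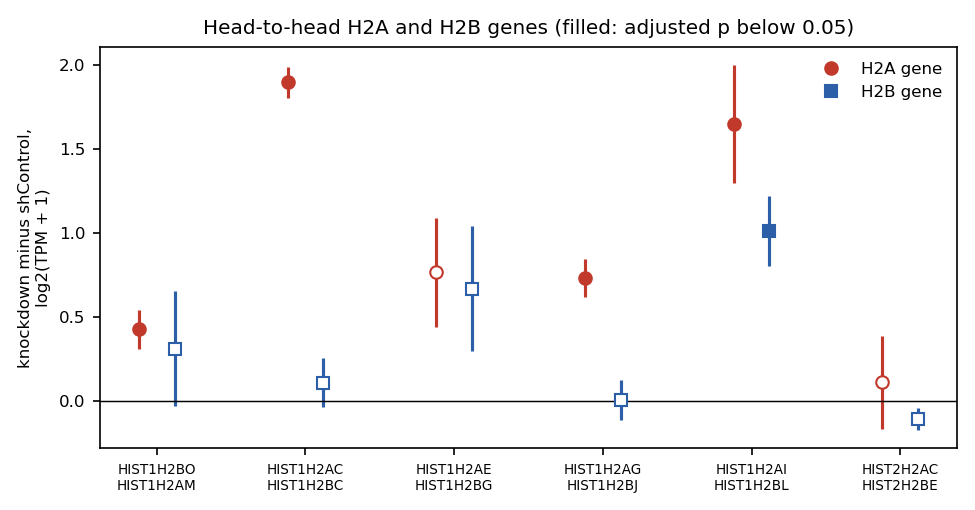
Knockdown difference in log2(TPM + 1) with its standard error (y axis) for the 6 head-to-head pairs of histone genes in which both were tested (x axis); red circles are H2A genes, blue squares H2B genes, and filled points have an adjusted p below 0.05. HIST1H2AC stands at 1.90 and its neighbour HIST1H2BC at 0.11.

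The factors that make and process histone RNA were followed through fixed lists. SLBP, which binds the stem-loop, was at 224 and 229 TPM in shControl, 132 and 125 with sh1, 156 and 160 with sh2, 220 and 213 with the inhibitor, 177 and 183 in Vector and 157 and 152 with overexpression. It fell in the knockdown (-0.66, SE 0.03, adjusted p = 6.3e-07), with overexpression against Vector (-0.22, SE 0.04, adjusted p = 0.0014) and in Vector against shControl (-0.33, SE 0.04, adjusted p = 0.00027), and not past the test with the inhibitor (-0.07, SE 0.04, adjusted p = 0.19). Its levels were thus highest in the 2 groups with the lowest summed histone level. The same 2 groups were highest in the summed level of 37 genes of S phase and DNA replication, SLBP among them. That sum was 3620 and 3590 TPM in shControl and 3980 and 3970 with the inhibitor. It was 3280 and 3290 in Vector, 3370 and 3290 with overexpression, 2960 and 2880 with sh1 and 3160 and 3160 with sh2. The part of SLBP in the histone result was not tested. NPAT, the coactivator of histone gene transcription, was at 6.58 and 6.05 TPM in shControl and between 4.53 and 5.78 in the hairpin libraries (-0.21, SE 0.08, adjusted p = 0.061). CCNE1, the cyclin whose kinase partner acts on NPAT, was at 42.1 and 41 TPM in shControl, 20.5 and 18.4 with sh1, 25.2 and 24.5 with sh2 and 43.6 and 44.7 with the inhibitor (knockdown -0.89, SE 0.04, adjusted p = 6.4e-07).

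Counts in these lists are read beside the shares of all genes that rose and fell, 26.2% and 20.2% in the knockdown and 28% and 11.8% with the inhibitor. In Vector against shControl those shares were 21.4% and 7.86%. Of 25 tested genes for histone mRNA processing, 1 rose and 8 fell in the knockdown (median -0.05), among them SNRPB (-0.28), CSTF2 (-0.24) and CSTF3 (-0.23), an RNP core protein and cleavage factors. Between the control groups, 3 rose and 7 fell in Vector against shControl. There SNRPB (-0.32) and CSTF2 (-0.14) fell and CSTF3 (0.21) rose, so a fall against shControl is not particular to the hairpins. With the inhibitor 16 rose and 0 fell (median 0.20), led by ZNF473, a partner of the U7 particle (0.40), the scaffold SYMPK (0.31), the decay helicase UPF1 (0.31) and FIP1L1 (0.29). Of 15 genes for histone gene transcription, 3 rose and 6 fell in the knockdown, with the second E-type cyclin CCNE2 (-0.47) and the phosphatase CDC25A (-0.29) lower and the NF-Y subunit NFYC (0.46) higher. In Vector against shControl 1 rose and 4 fell, CCNE2 (-0.21) and CDC25A (-0.28) among those lower, and NFYC (0.08) did not pass. With the inhibitor 4 rose and 1 fell, near the share of all genes, E2F4 (0.29), NFYC (0.29), E2F1 (0.28) and HINFP (0.28) being the largest.

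Of 37 tested genes of S phase and DNA replication 0 rose and 30 fell in the knockdown, where 26.2% of all genes rose and 20.2% fell (median -0.22, against 0.03 over all genes), among them SLBP, the replication initiation factors MCM10 (-0.50) and CDC6 (-0.50) and GINS4 (-0.44). Falls against shControl were also seen in the other control group. In Vector 1 of the 37 rose and 14 fell (median -0.09), where 21.4% of all genes rose and 7.86% fell. With the inhibitor 16 of the 37 rose and 0 fell, where 28% of all genes rose and 11.8% fell (median 0.11, against 0.08), led by GINS3 (0.39), RFC5 (0.38), MCM5 (0.34) and UNG (0.28). Of 24 histone chaperone genes 3 rose and 12 fell in the knockdown, CHAF1B (-0.33), SPTY2D1 (-0.29), ATRX (-0.27) and CHAF1A (-0.25) falling most, and 15 rose and 1 fell with the inhibitor, among them SUPT16H (0.28), NAP1L4 (0.27), IPO4 (0.26) and UBN1 (0.26). In Vector against shControl 3 of the 24 rose and 6 fell. Of 10 tested variant histone genes, which are made outside S phase as well, 2 rose and 3 fell in the knockdown, near the shares of all genes: H2AFV (0.21) rose, and H2AFX (-0.26), H2AFZ (-0.16) and the linker variant H1FX (-0.09) fell. In Vector against shControl H2AFX (-0.37) and H2AFZ (-0.24) fell by more, and H1FX rose (0.27). The falls of H2AFX and H2AFZ are thus not particular to the hairpins. With the inhibitor H1FX fell (-0.55, SE 0.03, adjusted p = 2.2e-06), from 145 and 143 TPM to 96.7 and 99.4, and H2AFV (0.27), H2AFY (0.25) and H3F3B (0.18) rose.

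Other RNAs that normally lack a poly(A) tail were followed as well. Of 17 tested short RNAs 4 rose and 0 fell in the knockdown (median 0.61), near the share of all genes that rose (26.2%). The median was 0.15 with sh1 alone and 0.63 with sh2 alone. The gene at the median, RNU12, was listed at 0 in shControl and sh1, so the median is no rise of the list with both hairpins. RN7SK, which keeps P-TEFb, a factor of transcript elongation, in an inactive complex, was at 12.4 and 14.2 TPM in shControl, 108 and 130 with sh1, 87.4 and 72.5 with sh2, 45.5 and 46.6 with the inhibitor, 28.4 and 31.5 in Vector and 129 and 125 with overexpression (knockdown 2.78, SE 0.09, adjusted p = 1.4e-07). RNU1-1 (3.21, from 0 to 52.8 TPM over the 12 libraries), SNORD3A (0.99) and RNU11 (1.37) rose too. RNU11 was listed at 0 in all libraries but those of sh2, where it was at 5.64 and 5.74 TPM. It was thus tested only because of its sh2 values, and its call among the 4 is no rise with both hairpins. With the inhibitor RN7SK (1.73) and the signal recognition particle RNAs RN7SL2 (1.80) and RN7SL1 (1.41) rose, and with overexpression RN7SK (2.05), RN7SL2 (2.18), RN7SL1 (1.52) and SNORD3A (1.32). The summed level of the list was 551 and 296 TPM in shControl, 204 and 307 in Vector, 1080 and 1140 with the inhibitor, 628 and 1020 with overexpression, 760 and 1090 with sh1 and 540 and 597 with sh2. The highest library was an inhibitor library, but the inhibitor and sh1 libraries overlapped, and libraries of the same group differed widely. Most of the sum with the inhibitor came from RN7SL1 (444 and 446 TPM) and RN7SL2 (519 and 552 TPM), so it stands for those genes more than for the list. RN7SK was lower with the inhibitor than in the hairpin and overexpression libraries. The part of these RNAs in the histone result was not tested. Of 18 genes for the poly(A) tail and nuclear decay, 1 rose and 5 fell in the knockdown, where 26.2% of all genes rose and 20.2% fell, the terminal uridylyltransferase ZCCHC6 (-0.63), EXOSC2 (-0.27) and PABPN1 (-0.23) falling and INTS3 (0.23) rising. In Vector against shControl 3 rose and 3 fell, where 21.4% of all genes rose and 7.86% fell. There ZCCHC6 (0.37) was among those higher and PABPN1 (-0.26) and EXOSC2 (-0.19) among those lower. With the inhibitor 7 rose and 0 fell, where 28% of all genes rose and 11.8% fell, among them ZC3H14 (0.37), INTS3 (0.36), EXOSC10 (0.33) and EXOSC3 (0.32).

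**Figure D5:**
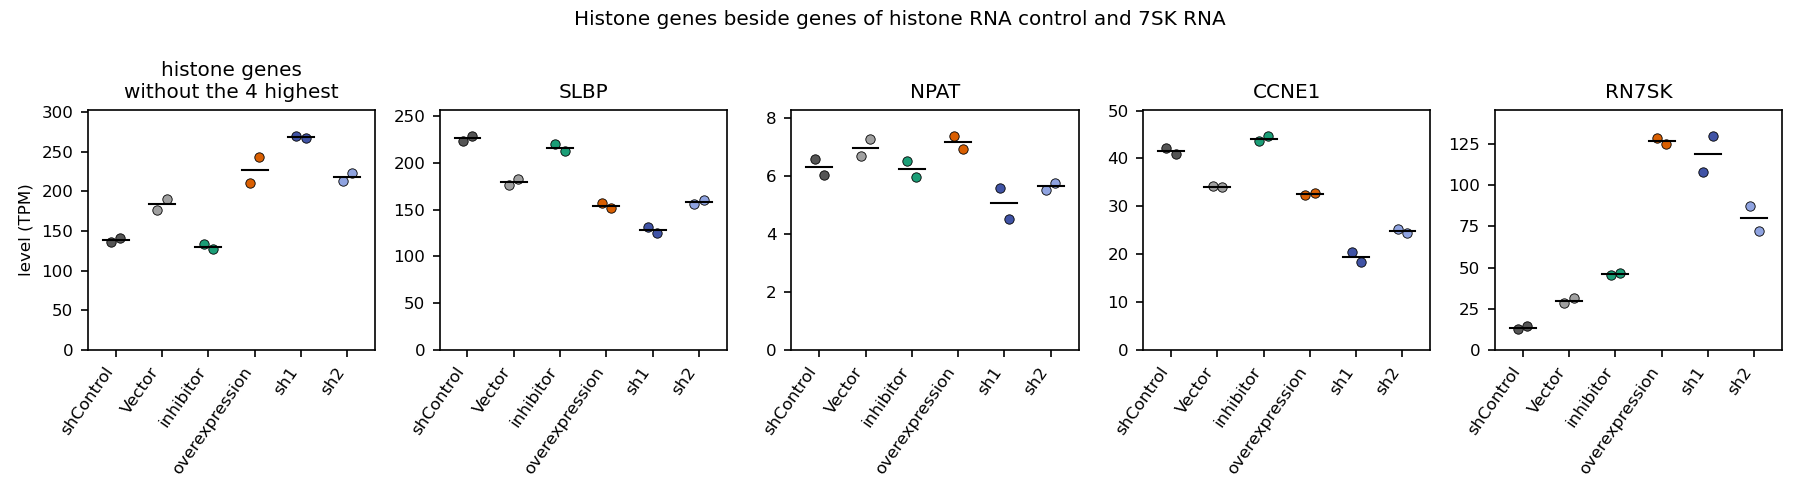
Level in TPM (y axis, from 0) by group (x axis) of the 70 histone genes summed without the 4 highest, and of SLBP, NPAT, CCNE1 and RN7SK; points are libraries and lines are means of 2. The histone sum is 136 and 141 TPM in shControl and 270 and 267 with sh1, SLBP is 224 and 229 and 132 and 125 there, and RN7SK is 45.5 and 46.6 with the inhibitor.

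Without the 4 most abundant genes the summed level was 136 and 141 TPM in shControl, 133 and 127 with the inhibitor, 177 and 190 in Vector, 211 and 244 with overexpression, 270 and 267 with sh1 and 213 and 223 with sh2. The inhibitor and shControl groups lay next to each other, sh2 and overexpression overlapped, and sh1 stood above all other libraries.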

How the data were processed

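RNA of 12 KMS11 libraries was sequenced after poly(A) selection, with random N6 priming and stranded DNBSEQ libraries, per the labels' protocols. The authors deposited TPM, 1 value per gene and library. The submitters' processing notes list RSEM 1.3.1, Bowtie2 2.3.4.3, DESeq2 1.4.5, HISAT and GRCh38.p13, with no role for each. The 2 control columns carry no group name. They were taken as shControl and Vector from the library numbers in the labels, an inference. TPM gives no depth, so no count model or counting interval was used.

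Genes that reached 1 TPM in 2 or more libraries, 12731 of 29607, were fitted with limma 3.58.1 (R 4.3.3) on log2(TPM + 1), 1 mean per group over all 12 libraries, eBayes with a trend of variance on mean, and adjustment by Benjamini-Hochberg over all genes tested. A gene rose or fell where the adjusted p was below 0.05. The fit was tested on simulated data. The histone genes, the 7 lists and the markers were chosen with earlier results of these data known. Every gene of the rule was accounted for. Those with a mean of at least 5 TPM and the highest of each class were given by library, and outside the class STK17B, SLBP, NPAT and RN7SK were named, with, from each list, up to 4 called genes with the largest change in the knockdown or inhibitor comparison. Lower genes were given by their difference. Genes were located with GENCODE 29, and sequence came from its transcripts and from RefSeq promoters. Alternatives were pseudocount 0.1, no filter, a filter at 5 TPM, 3 other scalings, only the groups compared, a replicate block, exchanged control columns and leaving out each library.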

Additional observations from a re-analysis of the deposited data

How the results depend on the processing

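With the control columns exchanged, the knockdown gave 12 histone genes higher and 2 lower, the inhibitor 1 and 10, and overexpression 12 and 0. In the knockdown HIST1H4E then turned to -0.65, HIST2H2BC to -0.55, HIST2H2BF to -0.027 and HIST2H4A to -0.10. With the inhibitor HIST1H2AC turned to -0.37, HIST1H3H to -0.014, HIST2H2BF to -0.10, HIST2H3A to -0.45 and HIST2H4A to -0.71. Exchange would only turn the sign of Vector against shControl and was not run there. Against the mean of both controls, the knockdown gave 1 lower gene (HIST2H2BC, -0.26), and the inhibitor 1 higher and 9 lower.

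A filter at 5 TPM left 17 histone genes, of which 10 were higher in the knockdown and 3 with the inhibitor. With no filter 2 were lower with the inhibitor and 0 in sh2 against sh1. Quantile normalization gave 3 higher and 1 lower with overexpression and 1 lower in Vector. Fitting only the groups compared gave 3 higher and 2 lower with overexpression and 0 lower in sh2 against sh1. The cause of these shifts was not tested beyond the number of genes and libraries each setting holds.

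Leaving out 1 library gave 12 to 17 higher in the knockdown, 3 to 4 higher with the inhibitor, 2 to 6 higher and 0 to 1 lower with overexpression, 4 to 8 higher and 0 to 1 lower in Vector, and 0 lower in sh2 against sh1. The inhibitor against the hairpins gave 13 to 19 lower, within 1.5 times of 18 under every alternative run. Replicate numbers do not pair the libraries: over 15 group pairs the correlation of same-numbered deviations ran from -0.104 to 0.14, with 1 over 0.1. The replicate block left 1 lower in sh2 against sh1 and kept the other counts within 1.5 times.

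Of all calls, the share higher moved by over 10 points with the median of ratios, from 70.3% to 55.9% with the inhibitor, 72.1% to 43.2% with overexpression, 73.1% to 43% in Vector and 75.1% to 52.6% in sh2 against sh1. The median of all genes shifted by at most 0.1 log2 units. Depth is unknown, so low genes near 1 TPM carry an error that 2 libraries measure poorly.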
